A study of Mus musculus with 14 samples.

Results

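The genes described here encode collagens, laminins and 5 further proteins of the extracellular matrix in mouse embryonic stem cells (ESCs). They were chosen by name alone, as every row of the RNA-seq table called Col or Lam with a chain number, together with Fn1, Sparc, Nid1, Nid2 and Hspg2. This rule found 55 of the 22376 genes in the table. They were split into 19 genes of the basement membrane, namely collagen IV, the laminins, Nid1, Nid2 and Hspg2, and 11 fibrillar collagens. The remaining collagens, Fn1 and Sparc made up the other 25 genes. The fibrillar class holds collagens that fibroblasts make, such as Col1a1, and cartilage collagens, such as Col2a1. Col19a1, Col28a1, Col4a4, Col6a6 and Col9a1 carry such names in the annotation too but have no row in the RNA-seq table. They have no level here, and the class medians leave them out.

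RNA-seq was made from 3 control and 3 Drosha-deficient libraries. Degradome-seq, which reads the 5′ ends of polyA-tailed RNA that carry a monophosphate, was made from 2 control and 2 Drosha-deficient libraries and from 2 control and 2 Dicer-deficient libraries. All cells of the Drosha comparison were Drosha fl/fl Gt(ROSA)26SorCreERT2 ESCs, so that the floxed alleles and the tamoxifen-inducible Cre are also in the untreated controls. The Drosha-deficient cells received 100 nM 4-hydroxytamoxifen for 72 h and were harvested 48 h after it was removed, and no vehicle is named for the controls. In the Dicer comparison, Dicer fl/fl ESCs were transduced with a retrovirus carrying Cre and GFP or, as controls, GFP, sorted for GFP on day 3 and kept for 2 more days. Both lines were grown in serum with LIF on Mitomycin C-inactivated mouse embryonic fibroblasts. Nothing in the labels says that replicates are separate cultures, so p-values measure only the spread between these libraries.

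The basement membrane is a thin sheet under epithelia in which laminin trimers of an alpha, a beta and a gamma chain and networks of collagen IV are joined by nidogens and by perlecan, the product of Hspg2. Fibrillar collagens instead form the fibres of connective tissue, made mainly by fibroblasts, osteoblasts and chondrocytes. In the early embryo, laminin and collagen IV are the first matrix that surrounds the epiblast, from which ESCs derive, whereas fibrillar collagens are typical of later mesenchyme.

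For RNA-seq, the values used were the authors' mean log2 CPM over all 6 libraries, control and Drosha-deficient together. The level of a gene below is this mean log2 CPM less log2 of the kilobases its exons cover, so that long and short genes can be set side by side. No value per library was used, so the levels have no error, the order of neighbouring genes has no test, the loss of Drosha mRNA could not be checked, and no change of any of the 55 genes on loss of Drosha is given. The median level was 1.05 over all genes of the table with a length and 2.12 over the 15459 protein-coding genes. The genes chosen were spread around these, with 22 above the former and 17 above the latter, and 42 of the 55 had a mean log2 CPM of at least 0. Together they held 0.604% of the summed CPM of the table.

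The cell type in the labels was checked against marker genes. The 10 ESC markers, among them Pou5f1 at 8.61, Sox2 at 7.57 and Nanog at 7.97, were all in the top 10% of the table by level and had a median level of 6.97. Markers of primitive and parietal endoderm, the extraembryonic cells that make much basement membrane in the embryo, were low, and all 8 in the table were below the median of all genes, from Gata4 at −0.10 down to Sox17 at −3.71, whereas Afp and Ttr were not among its rows. The 15 markers of feeder fibroblasts had a median level of 0.46 and ranged from −3.96 for Twist2 to 5.72 for Timp1, the 1 marker of them in the top 10%. Of these, 9 were below the median of all genes and 3 had a mean log2 CPM below 0. Tagln and Acta2, which encode proteins of the contractile cytoskeleton, had levels of 4.48 and 4.37, Postn 1.36, Thy1 1.56 and Pdgfrb 0.49, whereas Dcn, Pdgfra and Lum were at −1.05, −1.80 and −1.92. No listed fibroblast marker was absent from the table.

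The basement membrane genes had the highest median level of the 3 classes. It was 2.72, with 12 of 19 above the median of protein-coding genes and 3 (Nid2, Lamc1 and Nid1) in the top 10% of the table. The fibrillar collagens had a median level of −0.17 with 1 of 11 above the median of protein-coding genes and 0 in the top 10%. The cartilage collagens Col2a1, Col11a1 and Col11a2 of this class, at −0.76, −2.43 and −3.83, were all below its median. The other 25 genes had a median level of −1.01, with 4 above the median of protein-coding genes and 3 in the top 10% (Fn1, Sparc and Col18a1). The medians of the basement membrane and fibrillar classes differed by 2.89 on the log2 scale, and this difference was 2.09 when the longest annotated transcript was used for length and 1.76 among genes with a mean log2 CPM of at least 0. Each class was wide, however. Basement membrane genes ranged from −6.56 to 6.76, fibrillar collagens from −5.84 to 3.89 and the other genes from −6.68 to 7.65.

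**Figure D1:**
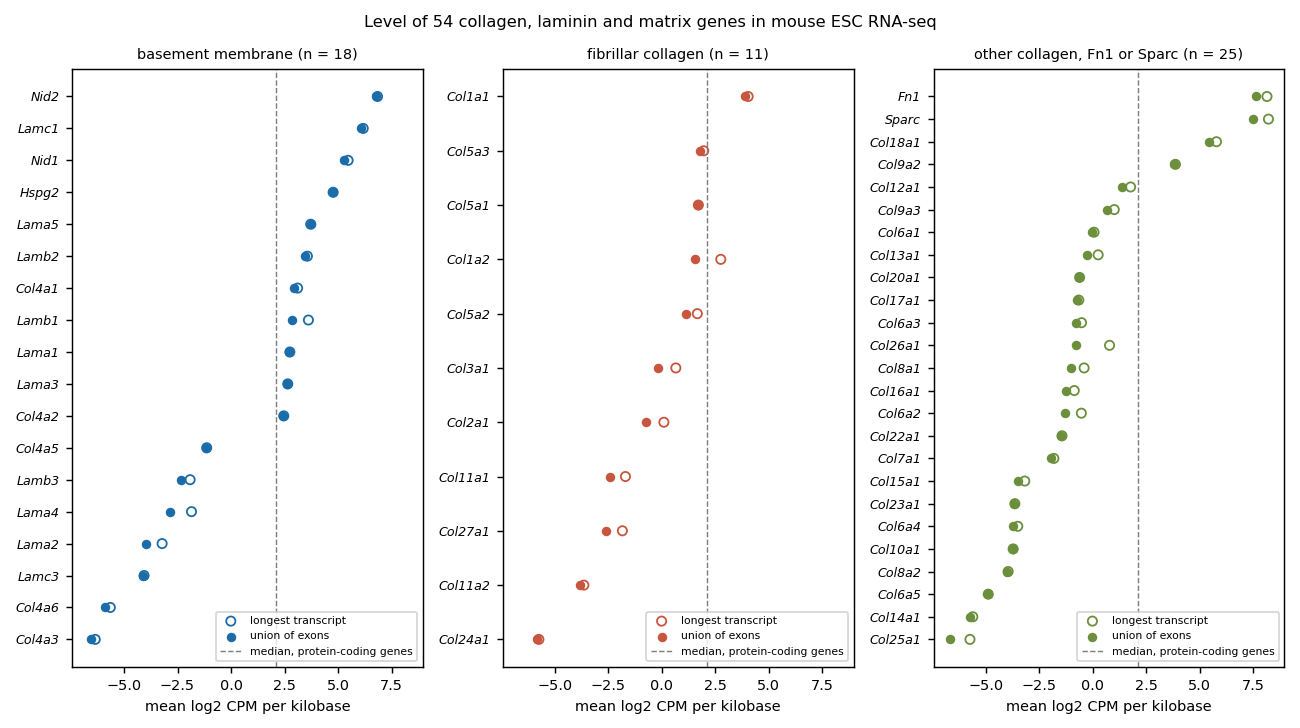
Level of 54 of the 55 genes in mouse ESCs, in mean log2 CPM per kilobase over 6 RNA-seq libraries (x axis), ordered within the basement membrane genes (n = 18), the fibrillar collagens (n = 11) and the other genes (n = 25). Filled points use the union of exons and open points the longest annotated transcript, and the dashed line is the median of protein-coding genes at 2.12, which 11, 1 and 4 of the plotted genes of the classes exceed with the union of exons.

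Among the laminins, Lamc1 stood far above every other chain. It encodes the gamma chain that most laminin trimers contain, and its level of 6.06 was higher than that of 96.2% of all genes. This gene lies at chr1:153218922-153332786 of GRCm38. The beta chains Lamb2 and Lamb1 had levels of 3.45 and 2.84, which placed Lamc1 6.06-fold and 9.32-fold higher per kilobase. With the longest transcript in place of the union of exons the level of Lamb1 rose to 3.61, its excess over Lamb2 became 0.05 on the log2 scale and Lamc1 was 5.90-fold above it, so the order of the beta chains depends on the length used. The alpha chains of the early embryo, Lama5 and Lama1, were at 3.72 and 2.72, a 1.99-fold difference in level. Lamc1 exceeded them 5.05-fold and 10.1-fold.

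Lama3 and Lamb3, which encode alpha and beta chains of the laminin of skin and other stratified epithelia, did not have matching levels. Lama3 was at 2.62, close to Lama1, but Lamb3 was at −2.35, 31.5-fold lower. The chains known from muscle and vessel walls, Lama2 and Lama4, were at −3.98 and −2.84 and Lamc3 was at −4.12.

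Collagen IV showed the same division. Col4a1 and Col4a2, whose chains form the collagen IV found in nearly all basement membranes, had levels of 2.94 and 2.43, a 1.42-fold difference (1.57-fold with the longest transcript). Lamc1 was 8.69-fold above Col4a1. Col4a5 was at −1.18, Col4a6 at −5.90 and Col4a3 at −6.56. These encode the chains of the glomerulus and of smooth muscle. The log2 CPM of Col4a3 was −3.25, the lowest value in the table, which it shared with 10 other rows, so its level marks the floor of the table and not a measured amount.

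Collagen IV genes are arranged head to head in the genome, and the 2 pairs in the table differed in how close their levels were. Col4a1 lies on the minus strand at chr8:11198423-11312826 and Col4a2 on the plus strand at chr8:11312805-11449287. Their start sites are 21 bp apart, the genes overlap by 22 bp, and their levels were 0.51 apart on the log2 scale. Col4a5 and Col4a6, on the plus and minus strands of chromosome X, start 1309 bp apart and had levels 4.73 apart. With 2 pairs this is a description of these genes.

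The genes whose products join the networks had higher levels than those of collagen IV itself. Nid2, which encodes nidogen 2 and lies at chr14:19751265-19811787, had a level of 6.76, the highest of the basement membrane genes. Nid1 was at 5.28, 2.78-fold lower than Nid2, and Hspg2, the perlecan gene, at 4.76. Nid2 was 1.63-fold above Lamc1. The level of Col18a1, whose product also sits in basement membranes but which the rule counts among the other genes, was 5.46. Its closest relative in structure, Col15a1, was at −3.46, a 485-fold difference in level.

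The fibrillar collagens were led by Col1a1, which encodes the main chain of collagen I and had a level of 3.89, above 81.3% of all genes. Col1a2, which encodes the partner chain, was at 1.54, 5.09-fold lower. This ratio depends on length, since with the longest transcript Col1a2 was at 2.75 and the difference was 2.43-fold. Col5a3, Col5a1 and Col5a2, whose collagen V starts the assembly of collagen I fibrils, were at 1.80, 1.69 and 1.12. Col3a1, a collagen that fibroblasts make together with collagen I, was at −0.17, a log2 difference of −4.05 from Col1a1 (−3.38 with the longest transcript). The cartilage collagens Col2a1, Col11a1 and Col11a2 had levels of −0.76, −2.43 and −3.83, and Col27a1 and Col24a1 were at −2.62 and −5.84.

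ESCs and feeder cells could both contribute to these values, and their parts in the levels were not tested. The feeder fibroblast markers ranged from −3.96 (Twist2, above 5.96% of all genes) to 5.72 (Timp1, above 95.1%). This range takes in most genes of the whole table, so that most genes of the 3 classes lie within it is no trait of theirs. In bulk RNA, fewer cells of a type and less RNA per cell cannot be told apart.

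Fn1, which encodes fibronectin, and Sparc, which encodes a secreted collagen-binding protein, had the highest levels of the 55 genes. Fn1 was at 7.65 and Sparc at 7.49, above 99.0% and 98.9% of all genes. Fn1 made up 38.9% of the summed CPM of the 55 genes. With the longest transcript their order turned, with Sparc 0.07 above Fn1. Levels of both were within the range of the ESC markers, 4.95 to 10.9, and above Timp1, the highest feeder marker. Timp1 at 5.72 is also within that range, and which cells made the RNA of Fn1 and Sparc was not tested.

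The other 22 genes were collagens of many kinds, and most were low, with 20 of the 25 genes of this class below the median of all genes. Col9a2, a collagen on the surface of cartilage fibrils, was the highest after Col18a1 at 3.79, 8.67-fold above its partner Col9a3 at 0.67. Col12a1, which binds collagen I fibrils, was at 1.37. Col6a1, Col6a3 and Col6a2, which together form the beaded filaments of collagen VI, had levels of −0.03, −0.76 and −1.29, and Col6a4 and Col6a5 were at −3.71 and −4.90. The collagens that span the cell membrane were all below the median of all genes, from Col13a1 at −0.28 and Col17a1 at −0.75 to Col23a1 at −3.65 and Col25a1 at −6.68. The remaining 10 genes ranged from −0.64 for Col20a1 to −5.72 for Col14a1. In Col20a1, 79 bp of exon are shared with another gene on the same strand, so its reads cannot be fully assigned.

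The 5 genes with the lowest levels were Col25a1, Col4a3, Col4a6, Col24a1 and Col14a1. All 5 had a mean log2 CPM below 0, and such levels rest on few reads.

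**Figure D2:**
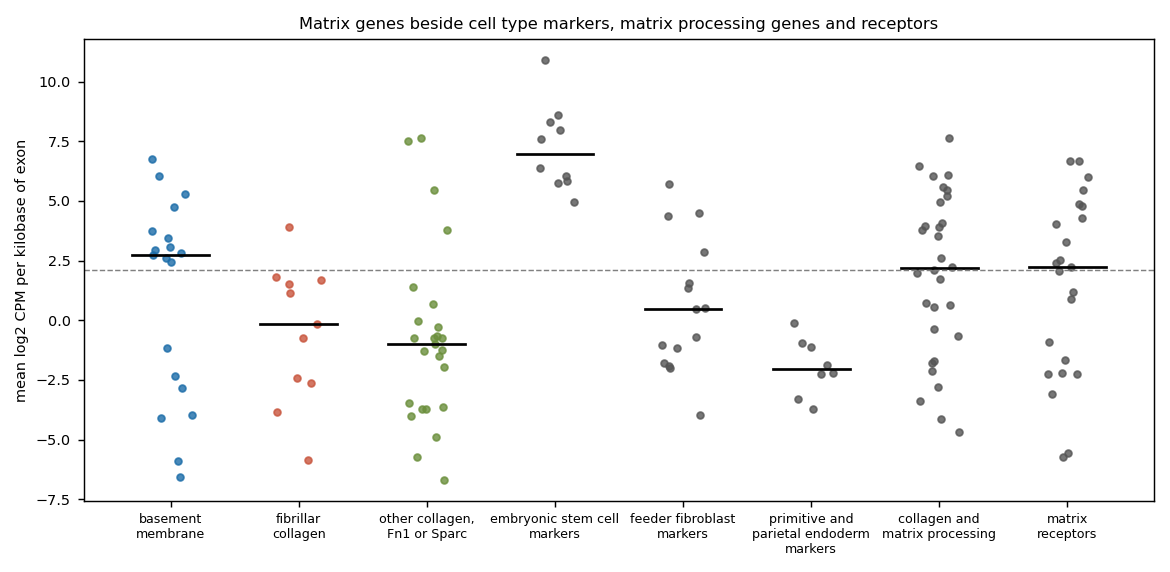
Level (mean log2 CPM per kilobase of exon, y axis) of each gene in the 3 classes of matrix genes and in the lists of ESC markers, feeder fibroblast markers, endoderm markers, matrix processing genes and matrix receptors, with each list's median as a bar and the median of protein-coding genes as a dashed line. The ESC markers have the highest median (6.97), and the median of the fibrillar collagens (−0.17) lies between those of the feeder markers (0.46) and the endoderm markers (−2.05).

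The enzymes and chaperones that make collagen had a higher median level than the 55 genes, whose median was −0.75. Of 30 genes for matrix processing, all in the table, 8 were in the top 10% and 12 below the median of all genes, with a median level of 2.17. P4hb and P4ha1, which encode the subunits of prolyl 4-hydroxylase, were at 7.64 and 5.57, and the collagen chaperone Serpinh1 was at 6.06. Colgalt1, which adds galactose to collagen, was at 6.07, the prolyl isomerase Ppib at 6.45 and the lysyl hydroxylase Plod2 at 5.21. Many of these also act on other proteins of the secretory pathway. Of the enzymes that cut the ends of fibrillar procollagen, Adamts14 was at 2.22, Bmp1 at −0.66, Adamts2 at −2.12, Tll1 at −3.37 and Adamts3 at −4.69. Pcolce, which enhances the action of Bmp1, was at 4.95, and Lox, which crosslinks collagen, was at 3.78.

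Of 24 genes for matrix receptors, 23 were in the table, 5 of them in the top 10% and 9 below the median of all genes, with a median level of 2.23. Receptors for laminin and fibronectin were found at both ends of the list. Itgb1, the beta chain that most of these receptors share, was at 6.65, Bcam, a receptor for the Lama5 chain, at 6.02, Dag1 at 5.45, the fibronectin receptor chain Itga5 at 4.88 and the laminin receptor chain Itga6 at 4.78. Sdc4, a proteoglycan that binds fibronectin, was at 6.69. Itga4, another fibronectin receptor chain, had the lowest level of the 23 at −5.75, and the laminin receptor chain Itga7 was at −2.26. The collagen receptors Ddr1, Ddr2 and Itga1 had levels of 2.53, −0.92 and −5.56.

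In the Degradome-seq data, 9 of the pile-up sites that the authors deposited lay within 7 of the genes, and the other 48 genes had no site in the tables. A pile-up site is a position at which many reads start, and its value is the number of such reads scaled to the mapped reads of the library (RPM). Of the 9 sites, 5 were on the strand of the gene and 4 on the opposite strand, 4 were in the table of the Drosha comparison, 8 in that of the Dicer comparison and 3 in both. Those genes were Fn1, Hspg2, Lama5 (with 3 sites), Lamb1, Lamb2, Lamc3 and Col13a1. As read from the steps of the RPM values, the scaling used between about 28700000 and 34500000 reads per library. On this scale 1 read was worth 0.0289 to 0.0349 RPM and 3 reads at most 0.105 RPM. The authors give a lower number of uniquely mapped reads for the libraries of the Drosha comparison.

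The sequence at each site is shown because it separates the sites into kinds. Each run has the 12 bases upstream of the site and then 18 bases from the first base of the reads, on the strand of the reads in GRCm38. Capitals mark bases directly upstream that equal the last bases of the linker CACGACGCUCUUCCGAUCU, an RNA that was ligated to the RNA in making the libraries.
Fn1, antisense, coding exon, chr1:71590851-71590880, plus strand: tctcTCCGATCTtgtagttgacaccgttgt
Hspg2, antisense, coding exon, chr4:137512720-137512749, minus strand: tcagtcgGATCTggtcccggaagcgcaggc
Lama5, antisense, coding exon, chr2:180187922-180187951, plus strand: acgcaaccgTCTgcaaaactgtaaggacaa
Lama5, sense, first base of an intron, chr2:180190622-180190651, minus strand: ctgggagacagggtgagcatttggtttgag
Lama5, sense, first base of an intron, chr2:180192076-180192105, minus strand: ccaactgcaggcgtgagtatccagtgctca
Lamb1, sense, coding exon, chr12:31329232-31329261, plus strand: cttggctcaagctaacagcaagctccagct
Lamb2, sense, coding exon, chr9:108489913-108489942, plus strand: cagcaggcagtgcccagagccgtgccaggg
Lamc3, sense, intron, chr2:31909109-31909138, plus strand: agagttgtcctTgggctggtgagatggctc
Col13a1, antisense, intron, chr10:61966569-61966598, plus strand: caaaacaaaacaagggctggtgagatggct

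The 3 antisense sites in coding exons followed 8 (Fn1), 5 (Hspg2) and 3 (Lama5) bases equal to the end of the linker. Of the 5 sense sites, 0 followed 3 or more such bases. At least 3 such bases preceded 30.8% of the 3919 sites in the Drosha table and 17.4% of the 4666 sites in the Dicer table, so the feature is common among all sites. The part that such a match has in the reads was not tested.

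The sense sites in Lama5 both began at the first base of an intron, and the introns open with gtgag. Sites of this kind were 5.95% of the Drosha table and 6.49% of the Dicer table. The sites in Lamb1 and Lamb2 lay in coding exons 400 and 605 bp from the end of the gene. The sites in Lamc3 and Col13a1 lay in introns, 429 and 5223 bp from the nearest exon, and shared the 17-base run gggctggtgagatggct. The 30 bases from the site onwards had 101 exact copies in the genome at Lamc3 and 18 at Col13a1, against 1 at each of the other 7 sites. The first 30 bases alone thus do not place a read in Lamc3 or Col13a1, and whether longer reads do was not examined.

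On loss of Drosha, reads fell at the 3 antisense sites, those in Fn1, Hspg2 and Lama5, whereas the fall at the sense site of Lamb2 did not pass the test. Across all 3919 sites of this table, 37.6% were called decreased and 9.57% increased by limma (FDR below 0.05, log2 fold change over 1.5 in size), so 3 called of 4 is to be read against a table in which decreases are frequent. Those calls were 1473 and 375 sites, and 871 and 602 when each library was centred on its median, which shifts the median of all sites by 0.59 on the log2 scale. The median change was −1.85 over the 4 sites and −0.93 over the table. The authors kept a site only if it was recognised as a pile-up site in both control libraries. Sites were thus chosen through the controls, which favours decreases before any test, and the part of this in the calls was not tested.

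At the Fn1 site, values were 17.4 and 22.8 RPM in the control libraries and 5.10 and 5.46 RPM in the Drosha-deficient ones. Both controls were above both deficient libraries, as at 59.9% of all sites in this table. The means were 20.1 ± 3.83 and 5.28 ± 0.254 RPM (SD, n = 2 each), and the log2 fold change of −1.90 (SE 0.35) had an adjusted p of 0.000239 by limma. When the libraries were centred the change was −1.30 and no longer past the fold threshold.

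At the Hspg2 site, control values were 3.21 and 2.43 RPM and deficient values 0.516 and 0.313 RPM. The deficient libraries were again the lower ones without overlap. The log2 fold change was −2.52 (SE 0.48, adjusted p by limma 0.00032), −1.93 with centred libraries and −1.43, short of the threshold, with a pseudocount of 1 RPM.

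At the antisense site of Lama5, values were 2.68 and 2.67 RPM in controls and 0.871 and 0.556 RPM in deficient libraries. These did not overlap, and the log2 fold change was −1.80 (SE 0.45, adjusted p by limma 0.00256). The call was lost with centred libraries (−1.20), with a pseudocount of 1 RPM (−1.11) and without either control library (adjusted p of 0.0611 without control 1 and 0.0545 without control 2).

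At the Lamb2 site, control values were 4.67 and 4.07 RPM and deficient values 2.58 and 3.41 RPM. The groups did not overlap, yet the log2 fold change of −0.54 (SE 0.39) did not pass the test (adjusted p by limma 0.232), and it was 0.05 with centred libraries and between −0.73 and −0.35 without 1 library at a time. In size this change was below the table's median change of −0.93.

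**Figure D3:**
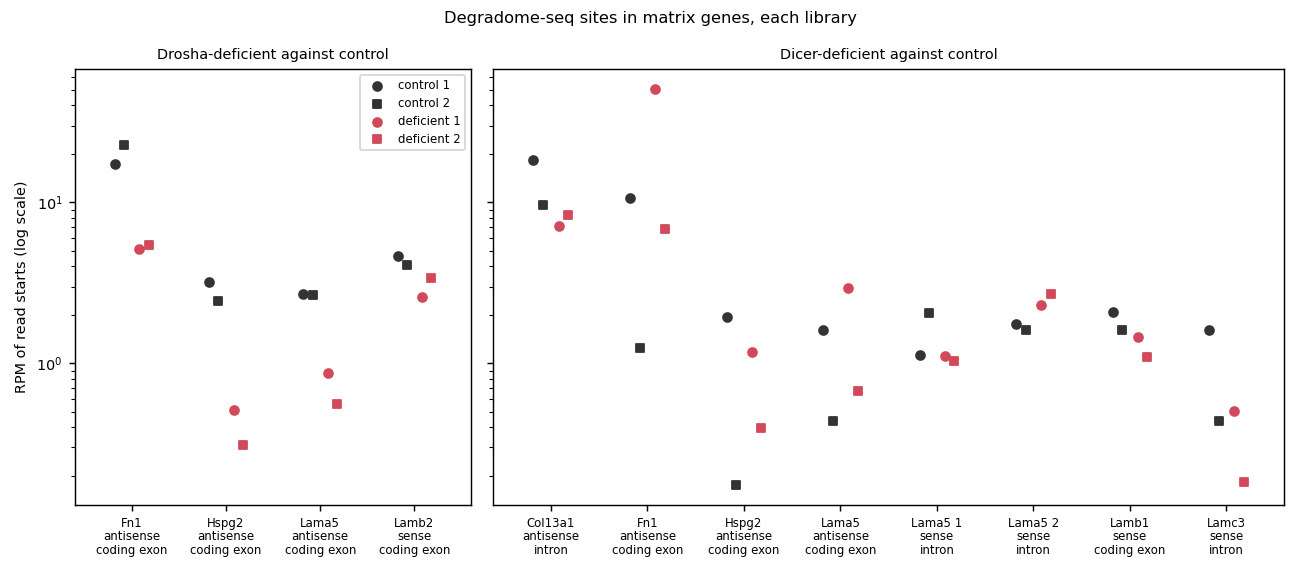
RPM of read starts (y axis, log scale) at the sites in matrix genes, 1 point per library, for the Drosha comparison (left, 4 sites) and the Dicer comparison (right, 8 sites). Black marks controls and red deficient libraries, with circles for library 1 and squares for library 2. At all 4 sites on the left the controls lie above the deficient libraries, as they do at 59.9% of all 3919 sites of that comparison. On the right the Fn1 values run from 1.25 to 50.5 RPM with the groups overlapping.

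On loss of Dicer, no site in a matrix gene was called by the test used here, and neither was any other site of the table. The authors' edgeR test on read starts, at the same thresholds, did call decreased sites on loss of Dicer. By limma 0 of 4666 sites (0%) were decreased and 0 (0%) increased, with 60 and 54 past the fold threshold at an unadjusted p under 0.05 and a smallest FDR of 0.465. With the replicate number as a block, 67 sites were decreased and 119 increased, among them the site in Fn1, although the labels do not say that libraries of the same number are paired. Over the 8 sites in matrix genes the median log2 fold change was −0.19, against −0.12 over the table, and 4 were lower. Both controls were above both deficient libraries at 3 of the 8 sites (27.4% in the table) and below at 1 (16.8%).

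The Fn1 site varied widely between libraries of 1 group. Control values were 10.7 and 1.25 RPM, deficient values were 50.5 and 6.81 RPM, so that library 1 of each group was the higher one and the groups overlapped. The log2 fold change was 2.29 (SE 1.21, adjusted p by limma 0.553). With the replicate number as a block the adjusted p by limma was 2.0e-05. Leaving out 1 library at a time moved the change between 0.79 (adjusted p by limma 0.743, without control 2) and 3.79 (0.446, without control 1). It was 0.86 without Dicer-deficient library 1, and it was called only without Dicer-deficient library 2, at 3.73 with an adjusted p of 0.00442 by limma, which then rests on 1 deficient library.

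The other antisense sites in coding exons spread in the same way between libraries. The Hspg2 site had 1.94 and 0.175 RPM in controls and 1.18 and 0.397 RPM in deficient libraries, with a log2 fold change of 0.09 (SE 1.06). The Lama5 site had 1.62 and 0.437 RPM in controls and 2.94 and 0.672 RPM in deficient libraries, with a log2 fold change of 0.67 (SE 0.87). At both, library 1 was above library 2 in each group, the groups overlapped and the adjusted p values by limma were 0.978 and 0.773. Leaving out 1 library at a time moved the Hspg2 change between −1.35 and 1.54 and the Lama5 change between −0.32 and 1.66, so the direction of both depended on the libraries included.

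At the sites that begin an intron of Lama5, values were between 1.04 and 2.69 RPM and the changes small. The site at position 180190639 of chromosome 2 had 1.13 and 2.04 RPM in controls and 1.11 and 1.04 RPM in deficient libraries, a log2 fold change of −0.46 (SE 0.51, adjusted p by limma 0.731). The site at position 180192093 had 1.77 and 1.60 RPM in controls and 2.30 and 2.69 RPM in deficient libraries, a log2 fold change of 0.54 (SE 0.41, adjusted p by limma 0.634). Their groups did not overlap but differed in opposite directions. At the former the nearest values, 1.129 RPM in control 1 and 1.115 RPM in deficient 1, were less than 1 read apart. Without 1 library at a time the changes ranged from −0.86 to −0.06 at the former and from 0.43 to 0.65 at the latter.

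The sites in Lamb1, Lamc3 and Col13a1 were lower on average in the deficient libraries, and 0 of them passed the test. At Lamb1 the controls had 2.08 and 1.60 RPM and the deficient libraries 1.45 and 1.10 RPM, without overlap, with a log2 fold change of −0.50 (SE 0.45, adjusted p by limma 0.683). At Lamc3 the values were 1.62 and 0.437 RPM and 0.507 and 0.183 RPM, which overlapped, with a log2 fold change of −1.21 (SE 0.83, adjusted p by limma 0.601). Col13a1 had 18.3 and 9.59 RPM in controls and 7.09 and 8.34 RPM in deficient libraries. Its groups did not overlap, and the log2 fold change was −0.78 (SE 0.41, adjusted p by limma 0.553). Without 1 library at a time the changes ranged from −0.68 to −0.31 at Lamb1, −2.05 to −0.37 at Lamc3 and −1.24 to −0.31 at Col13a1.

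Whether the changes on loss of Drosha and of Dicer differ was tested at the 2595 sites in both tables, a test added after the data were seen. The lines and the means of deletion differ between the 2 comparisons, and this cannot be told apart from the enzyme. The Drosha change less the Dicer change was −4.19 (SE 1.46) at Fn1, −2.61 (SE 1.34) at Hspg2 and −2.47 (SE 1.10) at Lama5 on the log2 scale. The adjusted p values by limma were 0.0877, 0.182 and 0.135, so a difference was not shown at any of the 3 sites, and 124 of the 2595 sites passed an FDR of 0.05.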

How the data were processed

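The authors aligned the RNA-seq reads, from stranded libraries, to GRCm38 with STAR and deposited an edgeR table with the mean log2 CPM of each gene over 6 libraries. It also holds their log2 fold changes, F statistics, p-values and FDR, which were not used here. For Degradome-seq, the authors trimmed reads with Trimmomatic 0.38.0 and aligned them with STAR. They chose pile-up sites with a classifier and kept those found in both control libraries. RPM of read starts was deposited for each library, not pooled. Versions of edgeR (3.26.1) and Trimmomatic are from the submitters' processing notes.

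Levels are mean log2 CPM less log2 of kilobases of exon union in GENCODE vM21 (GRCm38). Sites were tested with limma 3.58.1 (R 4.3.3) on log2(RPM + 0.1), two-sided, with a mean-variance trend and Benjamini-Hochberg adjustment over all sites of each table, so fold changes of low sites are understated. The planned test is the one run. RPM values under 15 were multiples of the value of 1 read, within 0.05 read, but the lowest values of 3 libraries skip steps, so reads were not recovered and a count test was left out. The matches between site and linker, the copies of a site and the difference between the comparisons were examined after the data were seen. Alternatives changed length, filter, pseudocount, centring, block and libraries. Python 3.11.15 with numpy 2.4.6, pandas 2.3.3 and matplotlib 3.10.9 was used, and the test code was tested on simulated data.

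Named in full were chains that assemble together, the 5 highest and 5 lowest levels, Nid1, Nid2, Hspg2, Fn1, Sparc, Col18a1 and genes with a Degradome-seq site. Other genes were named after their values were seen. The genes, classes and lists were chosen with earlier results of these data known. The level of 1 gene counted in the classes is not reported here.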

Additional observations from a re-analysis of the deposited data

How the results depend on the processing

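Levels have no error over libraries, and reads at sites under about 1 RPM are few, so small changes there were not detectable at this depth. The median levels of the basement membrane, fibrillar and other genes were 5.9999, 3.13 and 1.77 without a correction for length, 2.75, 0.65 and −0.61 with the longest transcript, and 2.89, 1.12 and −0.64 among genes with a mean log2 CPM of at least 0. The basement membrane less fibrillar difference was 2.87, 2.09 and 1.76 in turn. Col20a1, the gene that shares exonic bases, is in neither class, so leaving it out could not change this difference. The choice of length moved levels by 0 to 1.56 (median 0.19), with 16 of 55 genes moving by over 0.5, and the 10 highest were the same genes.

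Decreased sites in the Drosha comparison numbered 548 with a pseudocount of 1 RPM, 871 with centred libraries and 907 to 1519 without 1 library, the lowest without control 1. Increased sites numbered 602 with centring and 264 to 463 without 1 library. In the Dicer comparison, decreased sites numbered 0 to 1 and increased sites 0 to 13 without 1 library, the highest of each without Dicer-deficient library 2.

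Replicates share only a number. The deviations of libraries with the same number correlated at 0.13 (Drosha) and 0.53 (Dicer). With the replicate block, 1475 sites were decreased and 375 increased in the Drosha comparison, and 67 and 119 in the Dicer comparison, and among sites in matrix genes the block changed the call at Fn1 in the Dicer comparison alone.

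Of 94 alternatives for the 12 sites and comparisons in matrix genes, 80 kept direction and call, 6 lost the call, 2 gained it and 6 turned direction. Only the 3 sites called in the Drosha comparison had a call to lose, so the 80 do not measure how stable those calls were. All 6 losses were at these sites. They were Fn1 with centred libraries, Hspg2 with a pseudocount of 1 RPM, and antisense Lama5 with either of these or without either control library. Those that turned were Lamb2 with centred libraries (0.052) and, in the Dicer comparison, Hspg2 with a pseudocount of 1 RPM (−0.090), without control 2 (−1.35) and without Dicer-deficient library 1 (−0.59), and Lama5 without control 2 (−0.17) and without Dicer-deficient library 1 (−0.32). Hspg2 and Lamc3 have a mean under 1 RPM in the Dicer table and no value under that filter. Without 1 library, the Dicer changes reached 1.54 at Hspg2 and 1.66 at Lama5. The causes were not tested.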
